A study of Arabidopsis thaliana with 30 samples.

Results

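The genes described here are those of the plastid genome of Arabidopsis, the small circular chromosome kept inside chloroplasts. They were taken as every gene whose ID starts with ATCG in any of the 9 deposited tables of gene values, which gave 117 genes of 24721 in all, and 98 of the 117 were in all 9 tables. By name, 4 are ribosomal RNA (rRNA) genes and 40 are protein genes: 3 of photosystem I, 5 of photosystem II, 3 of the cytochrome b6f complex, 5 of the ATP synthase, 4 of the NDH complex, the Rubisco large subunit, 15 of the ribosome and 4 others. The remaining 73 are given by ID only, because the sources used here do not pair these IDs with names. The genes of the plastid RNA polymerase are among the names that could not be paired with an ID, so that group could not be separated. RPM is the reads of a gene per 1000000 reads that the library has over all listed genes. The median level was under 1 RPM in 67 members, and 67 members had reads in all 30 libraries.

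The libraries came from whole seedlings, 10 days old, of 5 genotypes. 2OX, 4OX and 6OX overexpress MCU2, MCU4 and MCU6, which encode mitochondrial calcium uniporters, fused to YFP from the constitutive 35S promoter. The sextuple line carries lesions in all 6 MCU genes, made by crossing T-DNA insertion mutants with a CRISPR mcu5 allele, and is a knockdown that keeps some MCU expression. Col is the wild type Col-0. Each genotype was treated with AA (antimycin, an inhibitor of mitochondrial electron transport, at 50 µM) or with CK (the DMSO solvent), in 3 libraries per group. The labels give 5 hours of AA and the study's methods 4 hours, after a night in liquid medium in the dark. The study's methods call the 3 libraries of a treatment biological replicates, and neither they nor the labels say whether each came from a separate set of plants, so p-values measure the spread between these libraries.

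The headings of the tables conflict. The 4 tables that compare a line with Col head their libraries CK, but all 24 of their columns equal, read for read, columns headed AA in the 5 tables that compare AA with CK. There are therefore 30 distinct libraries. Here they carry the names that head them in the AA tables, and each comparison has the direction of its own table. AOX1A, the alternative oxidase gene that antimycin is known to raise in plants, had 225 to 470.4 RPM in the 15 libraries headed AA, against 569.8 to 1264 in the 15 headed CK. The study itself reports that AA treatment induced AOX1a. The order here is opposite to that, and has the direction that the line tables' heading of these libraries as CK would give. Which libraries received antimycin could not be settled from the files. "AA" and "CK" mean the AA tables' headings throughout, so "lower in AA" need not mean lower with antimycin.

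Plastid genes are read from the circular genome mostly as clusters, whose long transcripts are then cut into smaller RNAs. A bacterial-type polymerase, whose core is encoded in the plastid itself and whose sigma factors are nuclear, reads mainly photosynthesis genes and rRNA in green tissue. A phage-type polymerase encoded in the nucleus also reads plastid genes, many of them for housekeeping functions. Mature plastid mRNAs lack the long poly(A) tails of nuclear mRNAs, so how much plastid RNA enters a library depends on how the library was made. The sources used here do not state how rRNA was removed.

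Neighbouring plastid genes can even share bases. Among genes with a name here and an uninterrupted coding sequence, the start of a gene lies inside the end of the gene before it in 3 places. Other genes were not searched. These junctions are shown because reads over them bear on how far the counts of the genes on either side are independent. The sequences are RefSeq's, from the plastid genome of assembly TAIR10.1, written 5′ to 3′ on the coding strand. Capitals mark the bases that belong to both coding sequences, from the start codon of the second gene to the stop codon of the first, with 24 bases on each side. The shared stretch is 53 bases in psbD and psbC, 4 bases in atpB and atpE, and 16 bases in rpl22 and rps3. The study used Cufflinks to compute RPKM, a unit other than that of these tables, and how reads were counted for these tables is not given in the sources used here, so reads over the shared bases could be assigned to either gene.
psbD-psbC: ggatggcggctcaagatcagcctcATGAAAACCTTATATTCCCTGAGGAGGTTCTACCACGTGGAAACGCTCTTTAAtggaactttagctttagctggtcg
atpB-atpE: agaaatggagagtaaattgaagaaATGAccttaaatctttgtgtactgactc
rpl22-rps3: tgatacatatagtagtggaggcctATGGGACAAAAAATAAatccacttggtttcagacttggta

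The share of a library's reads that came from the plastid genome was low and varied widely. It had a median of 0.0644% over the 30 libraries. The lowest share was 0.0207% in sextuple AA replicate 1 (95% Wilson interval 0.0201 to 0.0212%), and the highest was 1.37% in Col CK replicate 3 (1.36 to 1.37%), a 66.0-fold range. Such intervals cover counting error only. All reads of a library are here those counted to the listed genes, not all reads sequenced. These totals ran from 2558929 in 2OX AA replicate 1 to 39065770 in 4OX CK replicate 3. Plastid reads numbered from 4930 to 167153 per library.

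In Col, plastid genes took 0.0305, 0.0277 and 0.0288% of the reads in the AA libraries, against 0.810, 0.307 and 1.37% in the CK libraries. The Col AA libraries lay close together, and each Col CK library was above every one of them. In the sextuple line the shares were 0.0207, 0.0298 and 0.0444% in AA and 0.0656, 0.0632 and 0.0904% in CK libraries, which do not overlap either. In 4OX they were 0.0629, 0.0237 and 0.0245% in AA and 0.0316, 0.0236 and 0.0283% in CK libraries, all low. The 2OX libraries spread widely, with 0.193, 0.610 and 0.101% in AA and 0.677, 0.0366 and 0.0589% in CK libraries. The 6OX libraries had 0.102, 0.121 and 0.342% in AA and 0.314, 0.0730 and 0.578% in CK libraries, and these groups overlap.

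The 4 rRNA IDs (ATCG00920, ATCG00950, ATCG01180 and ATCG01210) took 0.00393 to 0.920% of all reads and the other plastid genes 0.0162 to 0.445%. rRNA made up 16.8% of the plastid reads in 4OX AA replicate 3 and 84.0% in 2OX CK replicate 1, and the rest lay between. As a share of all reads, plastid rRNA varied over a 234-fold range and the other plastid genes over a 27.5-fold range. Reads of nuclear rRNA (5 IDs) moved with them, between 0.0372% in sextuple AA replicate 1 and 6.64% in Col CK replicate 3, as did reads of the mitochondrial genome, between 0.0101% and 1.09% in the same 2 libraries. The plastid reads amounted to 0.185 to 0.557 of the nuclear rRNA reads. The part of rRNA carry-over and of library making in the plastid values was not tested.

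**Figure D1:**
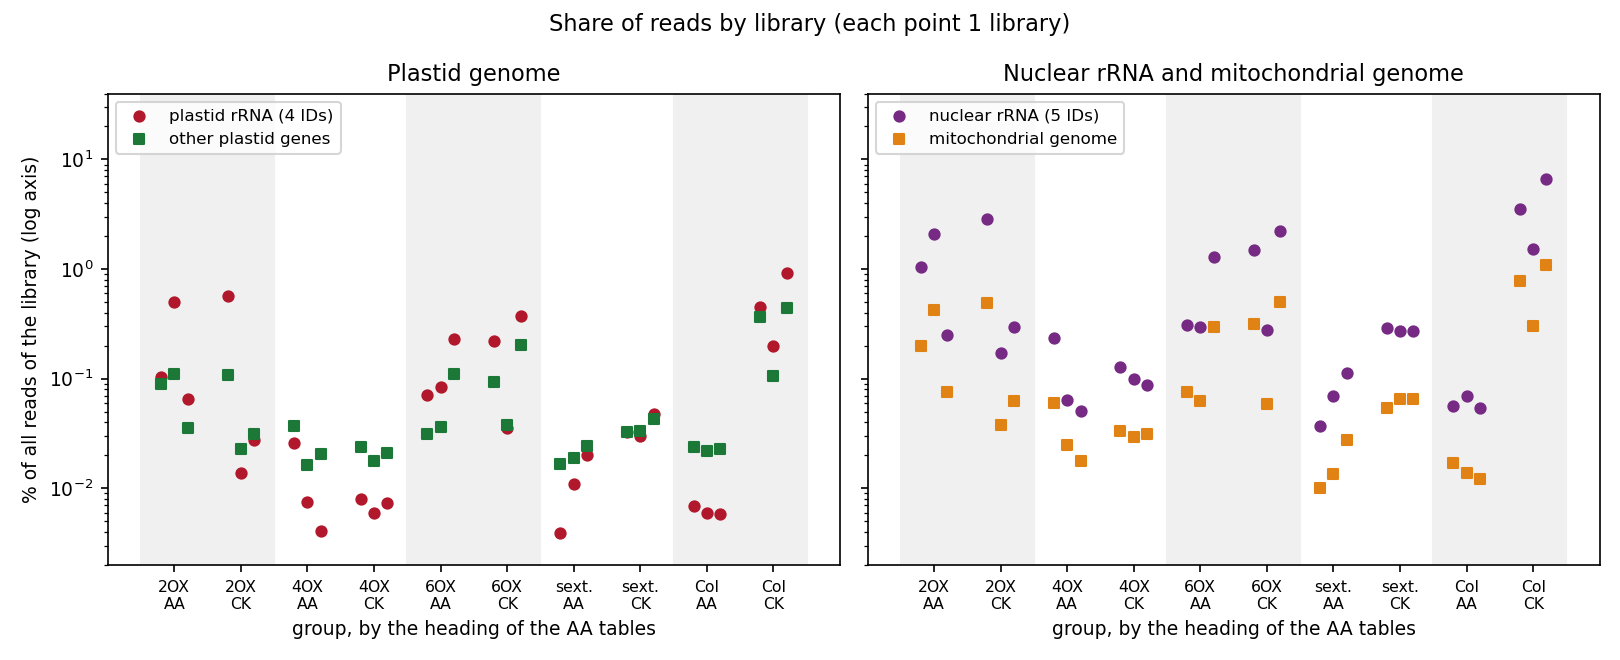
Share of all reads of each library, in percent on a log axis, taken by the 4 plastid rRNA IDs and the other plastid genes (left) and by 5 nuclear rRNA IDs and the mitochondrial genome (right). Each point is 1 library, 3 per group, and groups have their AA-table names. The 3 Col AA libraries, with plastid shares of 0.0277 to 0.0305%, lie below the 3 Col CK libraries, at 0.307 to 1.37%, in all 4 kinds of read.

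Counts of a duplicated gene were not shared evenly between its copies. The plastid genome holds an inverted repeat, in which a set of genes has 2 copies. The 2 IDs of rpl2 have identical coding sequences, 825 of 825 bases, yet over all libraries ATCG01310 had 3335 reads and ATCG00830 had 403. Of the rRNA IDs, ATCG01180 had 357811 reads, ATCG00950 had 278340, ATCG01210 had 98536 and ATCG00920 had 74129. How the authors' counting split reads between identical copies is not stated, so the level of any single copy is uncertain. The sources used here do not say which rRNA ID is which ribosomal RNA.

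In Col, most plastid genes were lower in AA than in CK libraries. Values from here on are the deposited normalized counts (read counts divided by the library's size factor) of the table named, fold changes are on the log2(value + 1) scale, on which changes of genes with few reads come out too small, each difference is given ± its standard error (SE), and a gene was called at a limma adjusted p under 0.05 and a fold over 1.5. Of 112 members tested, 95 were called lower and 0 higher, where 7.81% of all 22774 genes tested were called lower and 18.2% were called in either direction. The median difference of the members was -3.31, and -3.36 with the 3 members that had no read in 1 group set at the limit that 3 reads allow, against 0.025 for all genes. The AA and CK libraries did not overlap for 102 members, each lower in AA, where 19.6% of all genes did so. The other 5 members were not tested, because their mean was under 1 or they were not in that table. Some tested members reached that minimum only through the CK libraries: 96 had a mean of at least 1 in both groups, and 86 of these were called. Scaled to all reads instead of by the deposited size factors, the median of all genes was 0.154 to 0.310 in the 5 AA comparisons, and differences are given here relative to the tables' own scaling. In whole seedlings, fewer plastids or green cells, less RNA per plastid and unequal carry-over of such RNA into the libraries cannot be told apart.

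The rRNA genes had among the largest differences. ATCG01180 had 593, 514 and 509.7 in AA libraries, against 47213, 22340.1 and 99903 in CK libraries, a difference of -6.45 ± 0.41, with adjusted p = 1.09e-05. The AA libraries sat within a narrow band and the CK libraries were all far above it. ATCG00950 had 444, 406 and 351 in AA libraries, against 39615, 14092 and 85271 in CK libraries (-6.50 ± 0.50, adjusted p = 2.73e-05). The differences of ATCG01210 and ATCG00920 were -6.02 ± 0.41 and -6.17 ± 0.47. All 5 nuclear rRNA IDs were also called lower in AA, with log2 differences between -7.78 and -3.77, and nuclear rRNA took 0.0568, 0.0692 and 0.0543% of reads in AA and 3.52, 1.54 and 6.64% in CK libraries.

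The reaction centre genes of photosystem I, the complex that passes electrons from plastocyanin to ferredoxin, differed about as much as rRNA. psaA, which encodes 1 of the paired reaction centre proteins, had 91.6, 117 and 109 in AA libraries, against 16784, 2733 and 15687 in CK libraries (-6.40 ± 0.56, adjusted p = 6.34e-05). psaB, which encodes its partner, had 102, 127 and 103 in AA libraries, against 17828, 2823 and 15303 in CK libraries (-6.36 ± 0.56, adjusted p = 6.34e-05). psaC, for an iron-sulfur subunit, was lower by less, with 6.78, 4.98 and 9.35 in AA libraries, against 175, 47.8 and 156 in CK libraries (-3.82 ± 0.52, adjusted p = 0.00077). For each of the 3 genes, CK replicate 2 was the lowest CK library and was still above every AA library.

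All 5 named genes of photosystem II, the complex that splits water, were called lower. psbD, which encodes a reaction centre protein, had 25.1, 31.7 and 17.4 in AA libraries, against 3071, 594 and 3955 in CK libraries (-6.27 ± 0.59, adjusted p = 9.28e-05). psbC, which encodes an inner antenna protein, had 119, 91.4 and 78.5 in AA libraries, against 6684, 1639 and 8919 in CK libraries (-5.58 ± 0.51, adjusted p = 7.62e-05). psbB, for the other inner antenna protein, had 92.2, 105 and 114 in AA libraries, against 5425, 1257 and 6860.1 in CK libraries (-5.11 ± 0.51, adjusted p = 0.000122). psbA, which encodes the reaction centre protein that is replaced fastest in the light, differed least of the 5. It had 259.7, 332 and 272 in AA libraries, against 4649.5, 1415 and 7781 in CK libraries (-3.69 ± 0.48, adjusted p = 0.000597). psbH, a small subunit gene, differed by -5.58 ± 0.61.

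The 3 genes of the cytochrome b6f complex, which links the photosystems, were also called lower. petB, for cytochrome b6, had 35.9, 30.5 and 33.6 in AA libraries, against 1920.3, 601 and 2918 in CK libraries (-5.45 ± 0.46, adjusted p = 5.32e-05), and petD, for a membrane subunit, had 25.8, 25.5 and 24.9 in AA libraries, against 1648, 489 and 2567 in CK libraries (-5.59 ± 0.49, adjusted p = 5.9e-05). petA, for cytochrome f, differed less, with 37.3, 51.0 and 36.8 in AA libraries, against 732, 192 and 1127 in CK libraries (-3.68 ± 0.53, adjusted p = 0.00101). rbcL, the large subunit of the carbon-fixing enzyme Rubisco, had 129.5, 116 and 172 in AA libraries, against 3718, 1059 and 4854 in CK libraries (-4.28 ± 0.46, adjusted p = 0.0002). Groups did not overlap for any of these 4 genes.

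The ATP synthase genes differed by unequal amounts. atpA, for the alpha subunit, had 186, 157 and 173 in AA libraries, against 3529, 1134 and 5619 in CK libraries (-4.03 ± 0.45, adjusted p = 0.000257), and atpF, for a stalk subunit, differed by -3.76 ± 0.41. atpB, for the beta subunit, had only 452, 384 and 374 in AA libraries, against 1392, 826 and 1912 in CK libraries (-1.69 ± 0.25, adjusted p = 0.00123). atpE, for the epsilon subunit, shares 4 bases with atpB, as printed above, and had a like difference of -1.71 ± 0.30 (adjusted p = 0.00293). atpI, for a membrane subunit, lay between, at -3.22 ± 0.50. All 5 genes were called lower.

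Genes of the NDH complex, which returns electrons to the chain around photosystem I, had low counts. ndhH had 0, 9.95 and 4.36 in AA libraries, against 196, 44.5 and 235 in CK libraries (-5.04 ± 0.89, adjusted p = 0.00313), and ndhF had 10.9, 14.3 and 4.36 in AA libraries, against 80.9, 24.5 and 153 in CK libraries (-2.79 ± 0.66, adjusted p = 0.0136). ndhK was called lower at -2.02 ± 0.43. ndhJ had 19.7, 5.60 and 10.6 in AA libraries, against 58.4, 18.9 and 50.4 in CK libraries (-1.76 ± 0.57, adjusted p = 0.0504) and was the only named protein gene not called. Its groups overlap, since CK replicate 2 was below AA replicate 1.

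The 15 genes of ribosomal proteins were all called lower, with a median of -3.03 and a range of -5.89 to -1.92. rps14, which follows psaB on the genome, was the most different of them, with 21.0, 30.5 and 26.2 in AA libraries, against 3229.5, 452 and 2695 in CK libraries (-5.89 ± 0.61, adjusted p = 0.000156). rpl16 had 139.7, 120.0 and 126 in AA libraries, against 755, 358 and 1199 in CK libraries (-2.41 ± 0.35, adjusted p = 0.00111). rps4 had 11.5, 14.3 and 10.6 in AA libraries, against 315, 51.1 and 257 in CK libraries (-3.63 ± 0.60, adjusted p = 0.00216). The copies of rpl2 again differed in count. ATCG01310 had 74.6, 59.1 and 61.7 in AA libraries, against 339, 121 and 368 in CK libraries (-1.92 ± 0.38, adjusted p = 0.00588), and ATCG00830 had 4.07, 3.73 and 6.23 in AA libraries, against 55.4, 18.9 and 83.3 in CK libraries (-3.03 ± 0.58, adjusted p = 0.0046). rps7 had 6, 0 and 0 reads in AA libraries, against 10, 13 and 5 reads in CK libraries (-3.06 ± 0.76, adjusted p = 0.017).

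Of the other named genes, clpP, for the proteolytic subunit of the Clp protease, had 104, 114 and 96.0 in AA libraries, against 602, 293 and 998 in CK libraries (-2.42 ± 0.36, adjusted p = 0.00123). ycf4, a photosystem I assembly factor, differed by -4.72 ± 0.57, cemA, an envelope membrane protein, by -3.47 ± 0.39, and ccsA, needed for haem attachment to cytochromes, by -2.60 ± 0.76. All 4 were called lower. Of the unnamed IDs, 52 of the 68 tested were called lower. By the rule for named genes, the member with the largest fall was ATCG01090 (-6.74 ± 0.65, adjusted p = 0.000105). It had 1, 0 and 0 reads in AA libraries, against 103, 44 and 121 in CK libraries. Per read counted to genes, that is an AA over CK ratio of 0.00188, with an exact 95% counting interval of 4.75e-05 to 0.0106. Its fitted difference therefore depends on the constant added before the log.

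Among unnamed members with many reads, some differed little. ATCG01020 had 281, 307 and 272 in AA libraries, against 421, 342 and 292 in CK libraries (-0.28 ± 0.16, adjusted p = 0.245), and ATCG00220 had 139, 144 and 122 in AA libraries, against 213, 163 and 114 in CK libraries (-0.23 ± 0.24, adjusted p = 0.535). ATCG00190 was called lower by a small amount, with 769, 631 and 638 in AA libraries, against 1487, 1203 and 1986 in CK libraries (-1.17 ± 0.17, adjusted p = 0.00112). ATCG00220 and ATCG00190 were chosen after their values were seen. The groups overlapped for ATCG01020 and ATCG00220, in libraries where rRNA and psaA differed by -6.45 and -6.40 on the log2 scale.

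**Figure D2:**
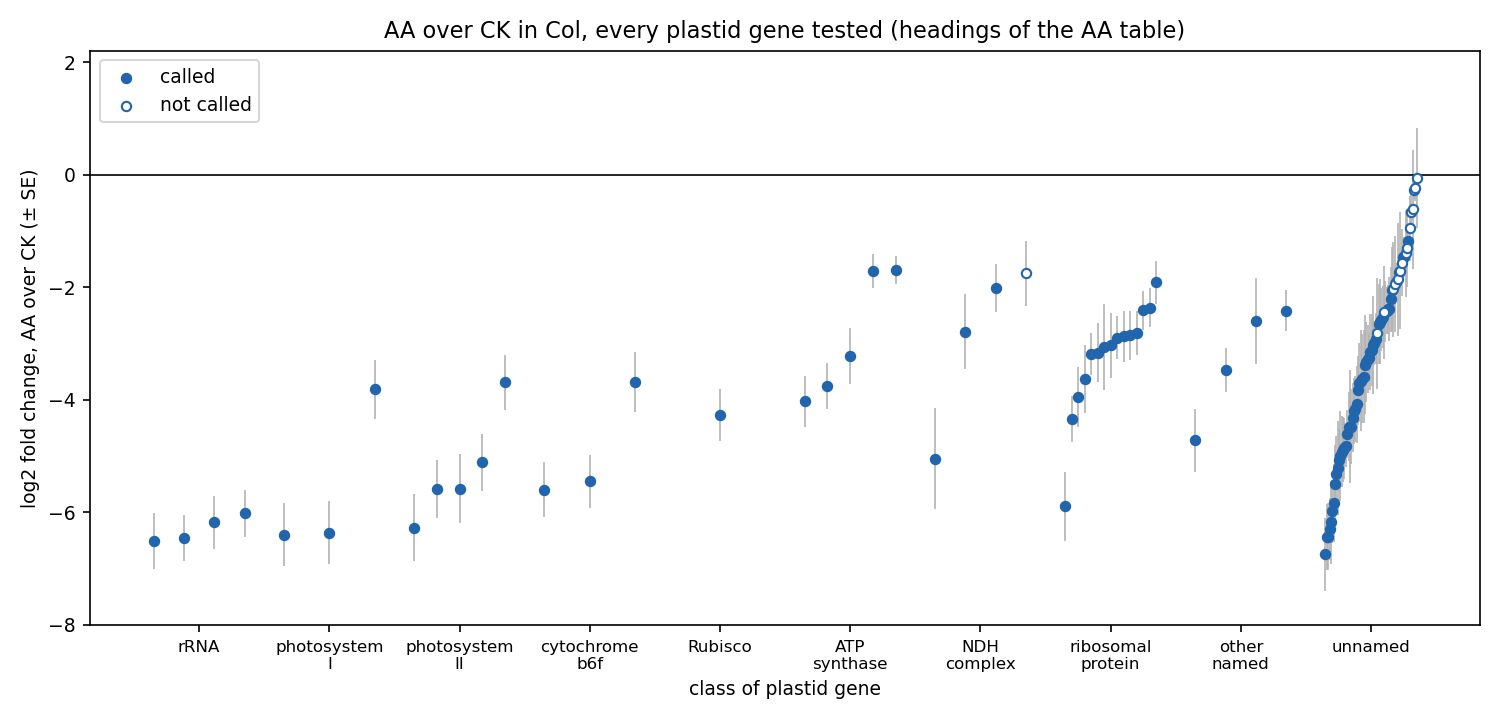
Log2 fold change of AA over CK in Col (y axis, with standard errors) for each plastid gene tested, by class along the x axis. Filled points were called and open points were not. rRNA lies at -6.50 to -6.02, the photosystem I and II classes reach -6.40 and -6.27, and ribosomal protein genes have a median of -3.03.

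Some genes that lie next to each other on a strand had like differences in Col. These runs were grouped after the values were seen, from the gene order of TAIR10.1, and carry no test. The order took protein-coding sequences only and left out rps12, so RNA genes or parts of rps12 can lie between genes of a run. psaA, psaB and rps14 lie in a row and differed by -6.40, -6.36 and -5.89. psbH, petB and petD differed by -5.58, -5.45 and -5.59. Each run held genes of more than 1 complex or function, photosystem and ribosome in the first, photosystem II and cytochrome b6f in the other. The overlapping atpB and atpE differed by -1.69 and -1.71, and psbD and psbC by -6.27 and -5.58. Other runs were looser. clpP and rpl20 were 1.92 apart, the run from ndhK to rps4 spanned 1.88 and the run from ycf4 to petA spanned 1.25 on the log2 scale. Reads of 1 long transcript can be counted to several of its genes, so neighbours are not independent.

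The make-up of the plastid reads outside rRNA also differed between the Col groups. Photosystem I genes took 3.86, 5.32 and 4.57% of these reads in AA libraries, against 36.4, 22.0 and 26.9% in CK libraries. Photosystem II genes took 9.80, 12.1 and 10.1% in AA and 21.5, 19.9 and 24.7% in CK libraries. ATP synthase genes ran the other way, and took up to 17.5% in AA libraries, each above 7.76, 11.6 and 9.64% in CK libraries. So did the unnamed IDs, with 48.3, 45.4 and 46.7% in AA and 15.5, 24.8 and 17.8% in CK libraries. A share that goes up in 1 class makes others go down, so these shares are a description and carry no test. Set against the median plastid protein gene of its own library, psaA averaged 1.61 in AA and 4.35 in CK libraries on the log2 scale, and psbA 3.05 in AA and 3.08 in CK libraries. On that measure psbA stood at nearly the same place in AA and CK libraries, psaA stood lower in AA libraries, and atpB stood higher in them, at 3.54 in AA and 1.56 in CK libraries. Over the 30 libraries the photosystem I share ran from 2.78% in sextuple AA replicate 1 to 36.4% in Col CK replicate 1, and the share of the unnamed IDs from 15.5% in Col CK replicate 1 to 48.3% in Col AA replicate 1.

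**Figure D3:**
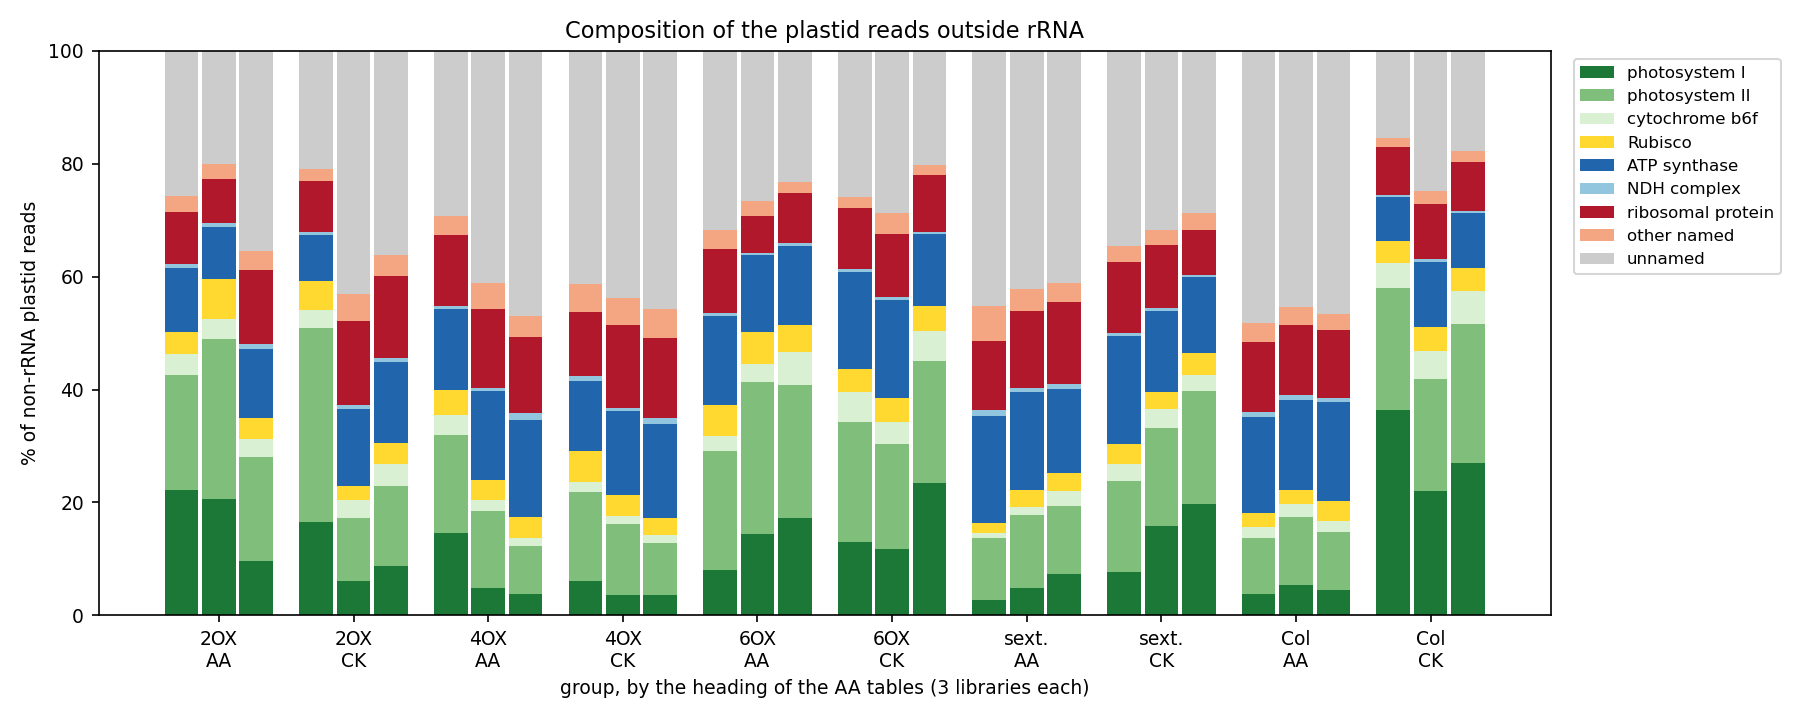
Percent of the non-rRNA plastid reads (y axis) taken by each class of plastid gene, with 1 stacked bar per library and 3 libraries per group, named by the headings of the AA tables. Photosystem I takes 2.78 to 7.25% in the Col AA, sextuple AA and 4OX CK bars, against 22.0 to 36.4% in the Col CK bars.

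In the sextuple line, some plastid genes were lower in AA libraries, and those with names were mainly rRNA and photosynthesis genes. Of 105 members tested, 37 were called lower and 0 higher, where 13.4% of all genes tested were called lower and 26% in either direction. Of the 95 members with a mean of at least 1 in both groups, 35 were called. The median of the members was -1.34, against 0.02 for all genes. All 4 rRNA genes, all 5 photosystem II genes, all 3 cytochrome b6f genes and rbcL were called, with 2 of 3 photosystem I genes, 3 of 5 ATP synthase genes, 3 of 15 ribosomal protein genes, 1 of 4 other named genes, 15 of 61 unnamed IDs and 0 of 4 NDH genes. The count was 22 without sextuple AA replicate 1 and 24 without sextuple AA replicate 2, the libraries of that line with the lowest plastid shares.

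petD had the largest fall by the rule for named genes, with 9.50, 15.0 and 47.2 in AA libraries, against 113, 127 and 179.9 in CK libraries (-2.78 ± 0.52, adjusted p = 0.00408). psaA had 69.6, 129 and 200.0 in AA libraries, against 419.7, 829 and 1652 in CK libraries (-2.76 ± 0.50, adjusted p = 0.00324), and psaB had 48.5, 109 and 256 in AA libraries, against 384, 829 and 1388 in CK libraries (-2.77 ± 0.59, adjusted p = 0.00775). The AA libraries spread over several fold and still lay below every CK library for each of these 3 genes. psbA had 317, 355 and 382 in AA libraries, against 811, 817 and 1643 in CK libraries (-1.55 ± 0.26, adjusted p = 0.00248), and psbB had 108, 165 and 162 in AA libraries, against 387, 477 and 572 in CK libraries (-1.73 ± 0.24, adjusted p = 0.000819). psbD and psbC differed by -2.54 ± 0.39 and -1.98 ± 0.38. rbcL had 86.5, 155 and 207 in AA libraries, against 382, 313 and 590.4 in CK libraries (-1.55 ± 0.34, adjusted p = 0.00914), and atpA had 145, 208 and 239 in AA libraries, against 767, 570.1 and 843 in CK libraries (-1.89 ± 0.23, adjusted p = 0.000505).

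Most genes of ribosomal proteins did not pass, nor did some other genes. rpl16 had 118, 172 and 248 in AA libraries, against 255, 168 and 199.6 in CK libraries (-0.25 ± 0.29, adjusted p = 0.571), and clpP had 203, 147 and 141 in AA libraries, against 211, 194 and 316 in CK libraries (-0.54 ± 0.25, adjusted p = 0.147). atpB had 476, 403 and 400.0 in AA libraries, against 669, 482 and 600.3 in CK libraries (-0.44 ± 0.18, adjusted p = 0.0925), and its neighbour atpE differed by -0.18 ± 0.22. rps4 differed by -0.91 ± 0.40 and petA, which was called, by -1.60 ± 0.35. The 3 called ribosomal protein genes were rps14, beside psaB, at -2.52 ± 0.64, rps2 at -2.31 ± 0.66 and rpl20 at -1.86 ± 0.35. The rRNA gene ATCG01180 had 449.5, 1215 and 2314 in AA libraries, against 4681, 4224 and 6918 in CK libraries (-2.25 ± 0.49, adjusted p = 0.00814). Nuclear rRNA took 0.0372, 0.0698 and 0.113% of reads in AA and 0.292, 0.270 and 0.274% in CK libraries, and its 5 IDs were called lower too. Its part in the plastid differences was not tested.

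In 2OX, 4OX and 6OX few plastid genes differed between AA and CK libraries, although 25.1%, 25.7% and 26.3% of all genes tested were called. Lower in AA were 14.1%, 12.9% and 13.7% of all genes. In 2OX, 0 of 107 members were called, 1 had an unadjusted p under 0.05, and edgeR and DESeq2 called 1 and 3. The replicates spread widely. psaA had 1636, 2021 and 273 in AA libraries, against 1754, 123 and 263 in CK libraries (1.33 ± 0.94, adjusted p = 0.32), so that CK replicate 1 lay with the high AA libraries. Leaving out CK replicate 1, which had the highest plastid share of the 2OX libraries, gave 7 calls, and leaving out AA replicate 3 gave 3. In 4OX, 2 of 102 members were called lower. Of the 95 members with a mean of at least 1 in both groups, 1 was called. ATCG01020 had 277, 294 and 302 in AA libraries, against 555, 417 and 392 in CK libraries (-0.63 ± 0.16, adjusted p = 0.0173). ATCG00410 had 0 reads in each AA library, against 5, 2 and 4 reads in CK libraries, so it was tested only through the CK libraries. With the AA group set at 3 reads in all, it was at least 3.29-fold lower in AA, a bound that rests on few reads. psaA had 707, 112 and 131 in AA libraries, against 211, 124 and 141 in CK libraries and was not called (adjusted p = 0.568). Without 4OX AA replicate 1 or CK replicate 1, ATCG01020 was not called, and the count was 1 without 4OX AA replicate 1, CK replicate 2 or CK replicate 3.

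In 6OX, 1 of 110 members was called, lower in AA. ATCG00070 had 54.6, 29.8 and 56.6 in AA libraries, against 101, 86.2 and 161 in CK libraries (-1.29 ± 0.36, adjusted p = 0.0226). The median of the members was -1.06, and 105 of 110 had a negative difference. psaA had 306, 641 and 2132 in AA libraries, against 1616, 707 and 6824 in CK libraries (-1.41 ± 0.81, adjusted p = 0.229), and atpA had 358, 421 and 1664 in AA libraries, against 2414, 876 and 3939.7 in CK libraries (-1.68 ± 0.62, adjusted p = 0.068). AA replicate 3 was high and CK replicate 2 low within their groups. Without AA replicate 3 the count was 35, without CK replicate 2 it was 34, without AA replicate 1 or CK replicate 1 it was 2, and without AA replicate 2 or CK replicate 3 it was 0. With the replicate number as a block it was 43. The share of all genes called in each of these settings is not given here, so these counts cannot be set against it.

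The line tables compare each line with Col in libraries that the AA tables head AA, and all 4 comparisons share the same 3 Col libraries. Plastid genes were higher in 2OX than in Col. Of 104 members tested, 32 were called higher and 0 lower, where 3.26% of all genes tested were called higher and 6.7% in either direction. Of the 93 members with a mean of at least 1 in both groups, 29 were called. The median was 1.55, against -0.038 for all genes. All 4 rRNA and all 5 photosystem II genes were called, with rbcL, 2 of 3 genes each of photosystem I and cytochrome b6f, 2 of 5 ATP synthase genes, 5 of 15 ribosomal protein genes, 1 of 4 other named genes, 10 of 60 unnamed IDs and 0 of 4 NDH genes. The share of all genes called with 1 library left out is not given here. The count moved when 1 library was left out, which also lowers power. It was 8 without 2OX replicate 2, 9, 12 and 14 without Col replicates 1, 2 and 3, 33 without 2OX replicate 1 and 54 without 2OX replicate 3.

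ATCG01180, an rRNA gene, had the largest rise, with 8888, 43557 and 5451 in 2OX libraries, against 542, 475 and 474 in Col libraries (4.69 ± 0.60, adjusted p = 0.00341). psaA had 1831, 2329.6 and 309 in 2OX libraries, against 83.7, 108 and 101 in Col libraries (3.49 ± 0.62, adjusted p = 0.0118). psbC had 1105, 2366 and 343 in 2OX libraries, against 109, 84.4 and 73.0 in Col libraries (3.45 ± 0.56, adjusted p = 0.00874). In each case the Col libraries were close together and the 2OX libraries all lay above them, with 2OX replicate 3 nearest to Col. psbA had 1499.8, 1857 and 483 in 2OX libraries, against 237, 306 and 253 in Col libraries (2.06 ± 0.42, adjusted p = 0.0184), rbcL differed by 2.33 ± 0.53 and petD by 2.82 ± 0.48. rpl16 differed by 1.10 ± 0.25 and clpP by 1.27 ± 0.26, and both were called. atpB had 379, 551 and 329 in 2OX libraries, against 413, 355 and 347 in Col libraries (0.14 ± 0.20, adjusted p = 0.676), and ATCG01020 had 260.5, 319 and 221 in 2OX libraries, against 257, 283 and 253 in Col libraries (-0.002 ± 0.18, adjusted p = 0.996). Nuclear rRNA took 1.04, 2.11 and 0.250% of reads in these 2OX libraries, against 0.0568, 0.0692 and 0.0543% in Col, and 3 of its 5 IDs were called higher. Its part in the plastid differences was not tested.

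In 6OX, 6 of 108 members were called higher than in Col and 0 lower, where 0.138% of all genes tested were called higher and 0.199% in either direction. They were the 4 rRNA genes, psbA and psbD. ATCG00950 had the largest rise, with 7096, 9204 and 25819.9 in 6OX libraries, against 632, 579.7 and 505 in Col libraries (4.38 ± 0.38, adjusted p = 0.00451). psbD had 162, 345 and 849 in 6OX libraries, against 35.7, 45.3 and 25.1 in Col libraries (3.36 ± 0.51, adjusted p = 0.0382), and psbA had 1034, 1456 and 2549.7 in 6OX libraries, against 370.0, 475 and 392 in Col libraries (1.93 ± 0.28, adjusted p = 0.0325). The 6OX replicates spread over several fold, with replicate 3 high. psaA had 393, 819 and 2761 in 6OX libraries, against 130.4, 167 and 157 in Col libraries, did not overlap with Col and was not called (2.67 ± 0.55, adjusted p = 0.0838). The groups did not overlap for 48 members, all higher in 6OX, where 11.4% of all genes did so. DESeq2 on the recovered reads called 34 members. The count was 12 without 6OX replicate 2 and 3 without Col replicate 3. Nuclear rRNA took 0.307, 0.294 and 1.29% of reads in these 6OX libraries, and 2 of its 5 IDs were called higher.

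In the sextuple line, 2 of 100 members were called lower than in Col and 0 higher, where 0.768% of all genes were called lower and 1.53% in either direction. ATCG00170 had 97.3, 148 and 218 in sextuple libraries, against 503, 317 and 380.0 in Col libraries (-1.42 ± 0.28, adjusted p = 0.0317), and ATCG00180 had 153, 223 and 296 in sextuple libraries, against 436, 388 and 487 in Col libraries (adjusted p = 0.0407). Neither was called when any library other than sextuple replicate 3 was left out. The rRNA genes and the photosystem genes did not pass. ATCG01180 had 532, 1440.3 and 2749 in sextuple libraries, against 865, 759 and 756 in Col libraries (0.69 ± 0.44, adjusted p = 0.396), psaA had 82.4, 153 and 238 in sextuple libraries, against 134, 173 and 162 in Col libraries (-0.10 ± 0.33, adjusted p = 0.887) and psbA had 374, 420.5 and 454 in sextuple libraries, against 379, 490.3 and 404 in Col libraries (-0.024 ± 0.14, adjusted p = 0.944). For psaA and ATCG01180 the Col libraries lay inside the range of the sextuple libraries.

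In 4OX, 0 of 102 members were called against Col by limma, where 5.53% of all genes were called. At an unadjusted p under 0.05 there were 9, and edgeR called 0 and DESeq2 4. The share of all genes at that p is not given here, so the 9 cannot be set against it. The count was 1 without 4OX replicate 2 or replicate 3. psaA had 753, 121 and 141 in 4OX libraries, against 136, 176 and 165 in Col libraries (0.56 ± 0.63, adjusted p = 0.599), with 4OX replicate 1 high and the other two within or below the Col range. ATCG00170 and ATCG00180, the members called lower in the sextuple line, had differences of -0.95 ± 0.30 (adjusted p = 0.084) and -0.91 ± 0.26 (adjusted p = 0.0691) in 4OX.

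**Figure D4:**
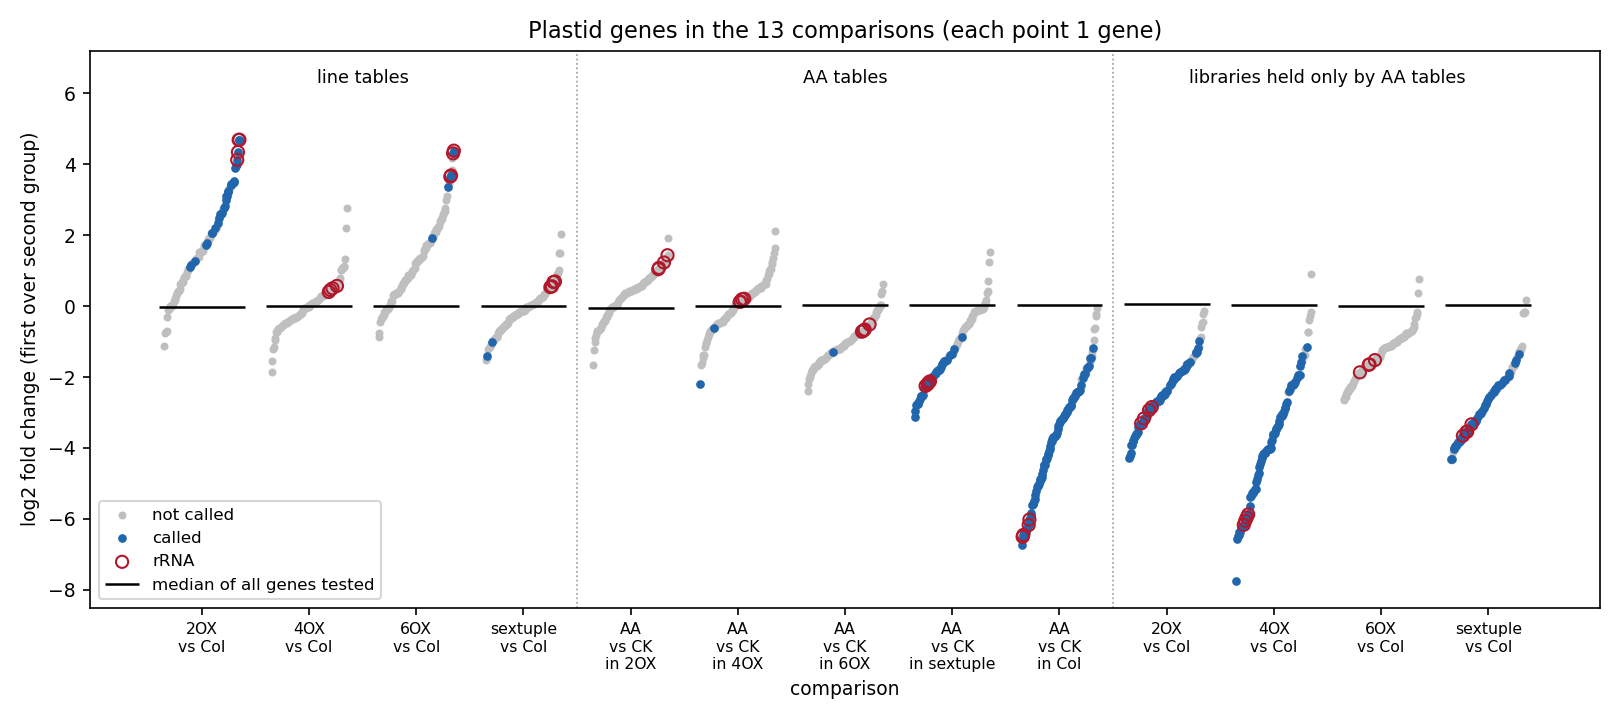
Log2 fold change (first over second group, y axis) of each plastid gene tested in 13 comparisons, sorted within a comparison. Blue points were called, grey points were not, red rings mark rRNA and black lines give the median of all genes tested, which lay between -0.043 and 0.048. Blue points are positive in 2OX and 6OX against Col in the line tables and negative in the other comparisons that have any.

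The libraries that only the AA tables hold, headed CK there, allow the same line comparisons in other libraries, and here many plastid genes were lower in 2OX, 4OX and the sextuple line than in Col. These 4 comparisons share the 3 Col CK libraries, the group with the highest mean plastid share, and their reads were put on 1 scale. In 2OX, 73 of 107 members were called lower, in 4OX 85 of 102, in the sextuple line 59 of 106 and in 6OX 0 of 111, with 0 higher in each. Of members with a mean of at least 1 in both groups, 73 of 107 were called in 2OX and 81 of 98 in 4OX. In the sextuple line these were 59 of 103, and in 6OX 0 of 109. Of all genes tested, 6.93%, 4.85%, 0.612% and 0.264% were called lower, in the same order, and 15.5%, 8.85%, 1.88% and 1.83% in either direction. The medians of the members were -2.40 for 2OX, -3.61 for 4OX, -2.60 for the sextuple line and -1.32 for 6OX. In 6OX, 54 members had an unadjusted p under 0.05, with no share of all genes at that p to set beside them. There edgeR called 0 and DESeq2 called 4.

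psaA, which had the largest fall in 2OX, had 2337, 165 and 352 in 2OX libraries, against 18905, 3062 and 17380.5 in Col libraries (-4.28 ± 0.87, adjusted p = 0.00558). In 4OX it had 163, 95.6 and 109 (-6.38 ± 0.50, adjusted p = 9.16e-06), and in the sextuple line 370.1, 728 and 1459 (-3.77 ± 0.66, adjusted p = 0.0223). The Col CK libraries were above every library of the 4OX and sextuple lines. psbA in 4OX had 577, 419 and 239.5 in 4OX libraries, against 5237, 1586 and 8621 in Col libraries (-3.42 ± 0.46, adjusted p = 0.000482). ATCG00960 had the largest fall in 4OX and in the sextuple line. It had 0 reads in each 4OX library, against 218, 69 and 127 in Col, so it was tested in 4OX only through the Col libraries. With 4OX set at 3 reads over the group, it was at least 272-fold lower per read counted to genes. In the sextuple line it had 6, 8 and 20 reads (-4.31 ± 0.66, adjusted p = 0.0155).

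Some of these counts also moved when 1 library was left out. In the sextuple line the count was 0 without sextuple replicate 2 or Col replicate 1 and 22 without Col replicate 3. In 2OX it was 35 without 2OX replicate 2 and 38 without 2OX replicate 3, in 4OX it stayed between 77 and 87, and in 6OX it was 5 without 6OX replicate 3. Nuclear rRNA took 0.129, 0.0995 and 0.0883% of reads in the 4OX and 0.292, 0.270 and 0.274% in the sextuple CK libraries, against 3.52, 1.54 and 6.64% in the Col CK libraries. RBCS1A, a nuclear gene for the small subunit of Rubisco and a green-tissue marker, was also called lower in 2OX and 4OX, with its values given with the tissue markers. The part of nuclear rRNA and of tissue make-up in these differences was not tested.

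An interaction term compared the AA difference of each line with the AA difference of Col, at an adjusted p under 0.05 with no fold limit. The coefficient is the AA minus CK difference in the line minus that in Col, and all 4 tests share the 6 Col libraries. It was positive, with a smaller or absent fall in AA, for 65 of 107 members in 2OX (1.93% of all genes positive), 34 of 102 in 4OX (0.246%) and 12 of 106 in the sextuple line (0.211%), and negative for 0 in each. Of all genes, 5.28%, 0.413%, 0.722% and 0.0044% passed in either direction in 2OX, 4OX, the sextuple line and 6OX. In 6OX 0 of 111 members passed in limma (0% of all genes positive), edgeR gave 0 and DESeq2 34. There 63 had an unadjusted p under 0.05, with no share of all genes at that p to set beside them. For psaA the interaction was 7.76 ± 1.27 in 2OX (adjusted p = 0.00618) and 6.93 ± 0.97 in 4OX (adjusted p = 0.0116). It was 3.66 ± 0.87 in the sextuple line (adjusted p = 0.0681) and 5.02 ± 1.17 in 6OX (adjusted p = 0.0988), and passed in neither. For ATCG01180 it was 7.53 in 2OX (adjusted p = 0.0125), 6.61 ± 0.81 in 4OX (adjusted p = 0.00657) and 4.23 ± 0.74 in the sextuple line (adjusted p = 0.0313). By the rule for named genes, the largest coefficients were those of ATCG01090 in 2OX (8.05 ± 1.42), ATCG00960 in 4OX (7.97 ± 1.16) and ATCG00950 in the sextuple line (4.33 ± 0.84). ATCG01090 and ATCG00960 have groups with 0 or 1 reads, so their coefficients depend on the constant added before the log. With each library left out in turn, 2OX gave 39 to 71 members, 4OX 5 to 58 and the sextuple line 0 to 39. In 2OX the count was 39 and 43 without CK replicates 2 and 3. In 4OX it was 19 and 58 without AA replicates 1 and 2, 17 and 5 without CK replicates 1 and 2, 21 and 12 without Col AA replicates 1 and 2, and 54 and 17 without Col CK replicates 2 and 3. In the sextuple line it was 5 and 0 without AA replicates 1 and 2, 0 and 34 without CK replicates 2 and 3, 0 without Col AA replicate 1 or 2, and 0, 39 and 3 without Col CK replicates 1, 2 and 3. In 6OX it was 4, 6 and 4 without AA replicate 2, CK replicate 3 and Col AA replicate 3.

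Across all 10 groups the members differed in how far their levels ranged. Levels here are RPM, which takes no account of gene length, and serve only to compare libraries. psaA ran from 2.50 to 637, with a median of 14.9 RPM over the 30 libraries. rbcL ran from 3.10 to 187, with a median of 13.1 and psbA from 8.76 to 299.7, with a median of 25.7. Other genes ranged less. atpB ran from 9.81 to 73.6, with a median of 18.0, ATCG00190 from 17.1 to 76.5, with a median of 29.4 and ATCG01020 from 5.99 to 18.7, with a median of 12.2.

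**Figure D5:**
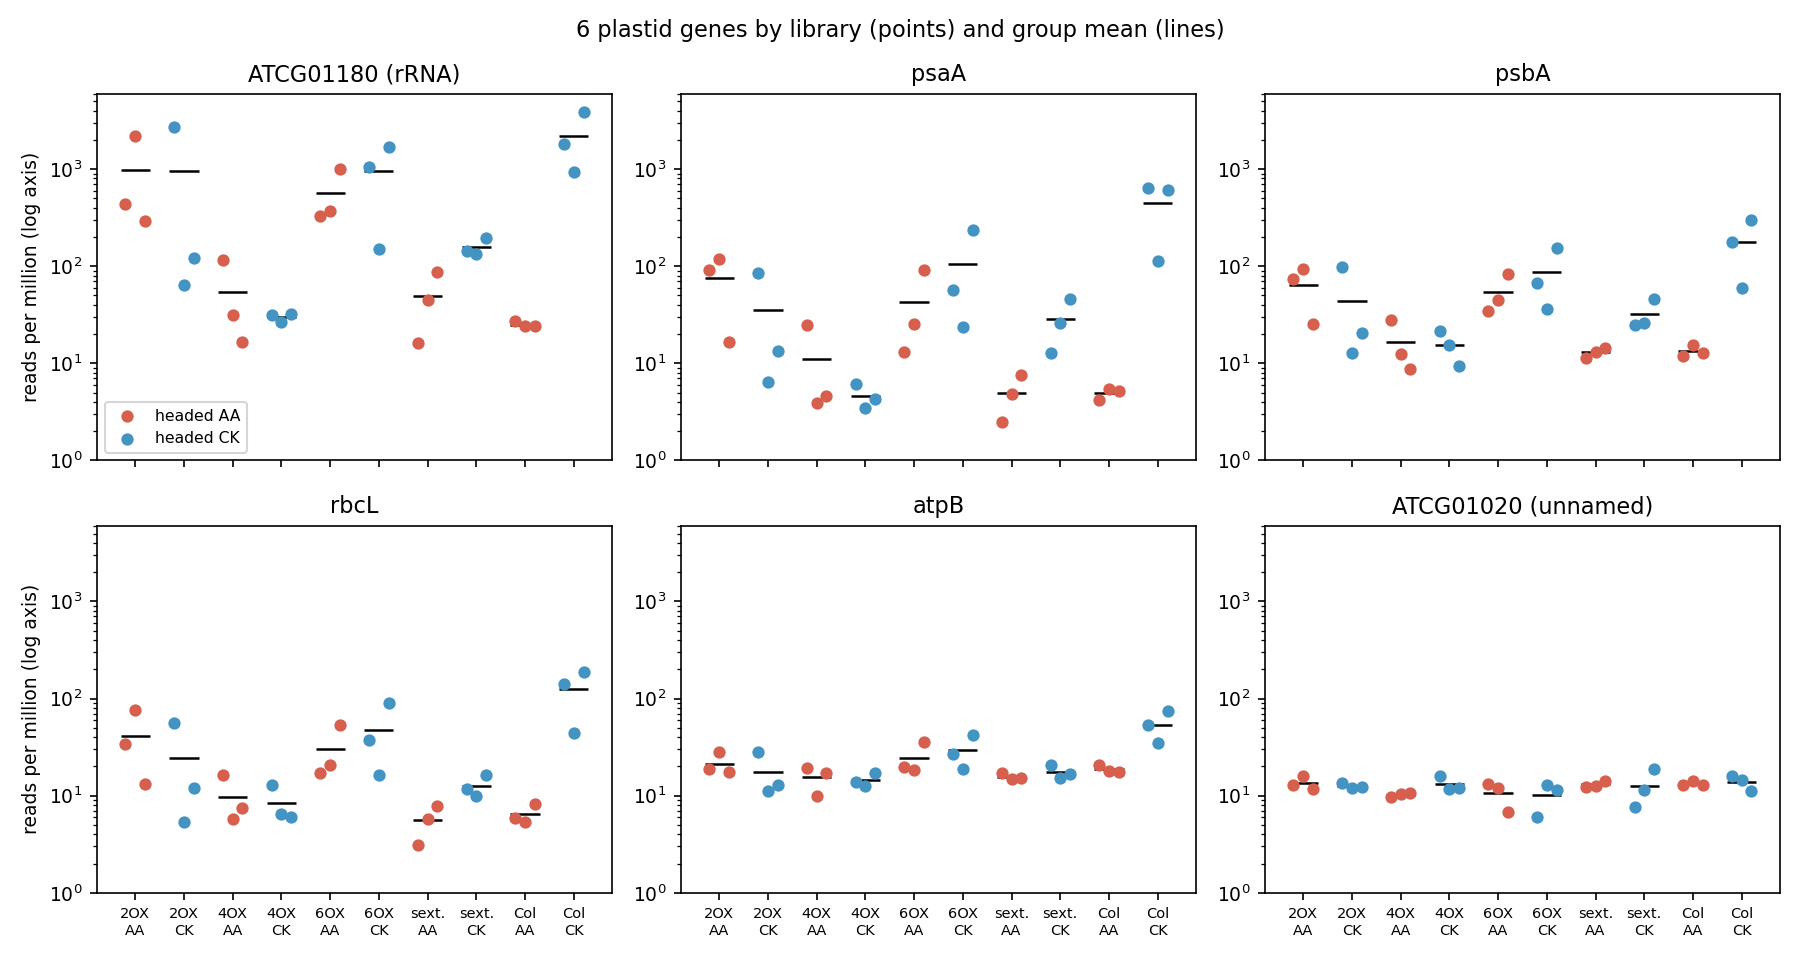
RPM (log axis) of 6 plastid genes in each library (points, 3 per group) with the group mean (line), by the headings of the AA tables. psaA runs from 2.50 to 637 RPM and ATCG01180 from 16.1 to 3848, while ATCG01020 stays between 5.99 and 18.7.

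Per length, levels differed between genes of the same complex. RPM per kb of coding sequence, as the median over the 30 libraries, could be given for 39 IDs with a coding length in RefSeq. That length leaves out introns, and whether reads over introns were counted is not given in the sources used here. Levels of genes with introns could therefore come out too high, and the part of this in the order was not tested. On that median psbA stood highest of all at 24.2 and psbD lowest in photosystem II at 4.68. The order changed between groups. In the Col AA libraries rpl16 averaged 14.6 and psbA 12.6, whereas in the Col CK libraries rps14 averaged 269.8, psaB 209, psaA 201 and psbA 168. As medians over all libraries, in photosystem I psaB had 6.96 and psaC 1.75, and in the cytochrome complex petD stood highest at 8.32 and petA lowest. rbcL had 9.07. Of the ATP synthase genes atpF had the highest level at 12.3 and atpI the lowest at 4.31. Of the ribosomal protein genes rpl16 was highest at 19.8 and rps7 lowest at 0.219, and of the other named genes clpP was at 12.9 and ccsA at 0.139. The NDH genes were low throughout, with ndhJ highest at 1.23 and ndhF lowest at 0.244.

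Nuclear genes that serve plastid transcription also differed between AA and CK libraries. Those for polymerase-associated proteins were higher in AA where they were called, mainly in the sextuple line and 2OX, while sigma factors went both ways. Of 12 genes for proteins that associate with the bacterial-type polymerase, 10 were called higher in AA libraries of the sextuple line, 8 in those of 2OX, 4 in those of 4OX, 3 in those of 6OX and 1 in those of Col, and 0 were called lower, where 12.6%, 11%, 12.8%, 12.6% and 10.4% of all genes were called higher. FSD3, an iron superoxide dismutase of the plastid nucleoid, was called in all 5, with log2 differences of 1.51 ± 0.25 in the sextuple line, 1.60 ± 0.15 in 2OX, 0.78 ± 0.12 in Col, 1.16 ± 0.13 in 4OX and 1.22 ± 0.17 in 6OX. Against Col in the line tables, 4 of the 12 were called higher in 2OX, where 3.26% of all genes were, and 0 in the other lines. These were PDE312 (0.65 ± 0.15), FSD3 (0.74 ± 0.12), FLN1 (0.93 ± 0.16) and TRX z (0.78 ± 0.13). Of 6 sigma factors, SIG2 (0.65 ± 0.15) and SIG6 (0.69 ± 0.17) were called higher in AA in the sextuple line, SIG6 higher in 2OX, SIG4 lower in Col (-1.09 ± 0.30) and SIG4 and SIG5 lower in 6OX. Of all genes, 7.81% in Col and 13.7% in 6OX were called lower in AA. Of 5 genes for plastid RNA processing and decay, RNase J was called higher in AA in the sextuple line (0.74 ± 0.19) and 4OX (0.64 ± 0.16), and 0 of 5 were called in 2OX, 6OX and Col. Of the 3 phage-type polymerases, RPOTP was higher in 2OX (0.66 ± 0.12) and RPOTMP in 4OX (0.62 ± 0.15) against Col in the line tables, and 0 were called between AA and CK libraries. In the CK libraries of the AA tables, SIG4 and SIG6 were called lower than in Col in 2OX and 4OX, with SIG6 at -0.94 ± 0.13 and -0.70 ± 0.15, and SIG2 was lower in the sextuple line (-0.71 ± 0.15). There 3 of the 12 polymerase-associated genes were lower in 2OX and 4 in 4OX, as were 2 and 4 of the 5 processing genes. Of all genes, 6.93% in 2OX and 4.85% in 4OX were called lower there.

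Markers of tissues differed between AA and CK libraries too. In each of the 5 AA tables the 3 root markers BGLU23, EXPA7 and CASP1 were called higher in AA libraries and LHCB2.1, a light-harvesting gene of green tissue, lower, while RBCS1A was not called. In Col the log2 differences were 3.64 ± 0.25 for EXPA7, 1.57 ± 0.24 for CASP1 and -1.75 ± 0.17 for LHCB2.1. Of these 5 markers, 0 were called in the line tables of 4OX, 6OX and the sextuple line, and in that of 2OX CASP1 was called higher (0.68 ± 0.13) and RBCS1A lower (-0.75 ± 0.18). Against Col in the CK libraries, RBCS1A was called lower in 2OX (-1.18 ± 0.19) and 4OX (-0.88 ± 0.23), CASP1 was called higher in 2OX (0.78 ± 0.25) and EXPA7 in the sextuple line (1.58 ± 0.34), and 0 of the 5 were called in 6OX. The part of tissue make-up in the plastid differences was not tested.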

How the data were processed

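RNA of whole seedlings was sequenced by the authors (NEBNext Ultra RNA kit, HiSeq2500) against TAIR10, and the submitters' processing notes name Bowtie 0.12.2. The 9 deposited tables hold, per gene and library, a signal that the authors made by dividing read counts by a size factor set within each table. The study used Cufflinks to compute RPKM, a unit other than that of these tables, and the tool that counted reads for these tables is not given in the sources used here. Whole reads were recovered for 100% of 1266084 values. The tolerance was 0.01 reads, and it grew in proportion to the count for genes with many reads. The tables' own mean, log2 fold change, standard error, test statistic and p-value columns were not used.

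Genes with a mean of at least 1 were tested on log2(value + 1) in limma 3.58.1 (R 4.3.3) with a mean-variance trend, two-sided, with Benjamini-Hochberg adjustment over all genes of the comparison. Calls required an adjusted p under 0.05 and a fold over 1.5, and interactions an adjusted p under 0.05. Line comparisons in the CK libraries, and interactions, used recovered reads of several tables put on 1 scale. edgeR 4.0.16 and DESeq2 1.42.0 on the recovered reads, other scalings, filters, added constants and thresholds, the replicate number as a block and leaving out each library were alternatives. Counts of members under an alternative, or at an unadjusted p, are given without the share of all genes there and cannot be set against it. Scripts were tested on simulated data.

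The text names a fixed roster of plastid genes (of it atpH, ndhB, rpoA, rpoB, rpoC1, rpoC2, accD, matK, ycf1, ycf2 and the separate rRNA species could not be paired with an ID), the called member with the largest rise or fall and a mean value of at least 50 in each comparison, and the highest and lowest per kb in each class. Genes outside this rule (psaC, psbH, the other subunits and ribosomal genes, ATCG00180, ATCG00410 and the neighbours) were named after their values were seen. The members and lists were chosen with earlier results of these data known. Total reads per library were 2558929 to 39065770, and intervals from them cover counting error only.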

Additional observations from a re-analysis of the deposited data

Results flagged for a closer look

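The AA minus CK difference of plastid genes in 3 lines was tested against that in Col and differed for some members at an adjusted p under 0.05 in limma. In 2OX this held for 65 plastid genes, in 4OX for 34 and in the sextuple line for 12, all with a positive coefficient. The 3 tests share the 6 Col libraries. No cause was tested.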

How the results depend on the processing

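Calls in Col kept their direction under the alternatives run, and no named value reversed; of 2907 values of named genes under alternatives, 2455 stayed on the same side of the threshold and 452 were no longer called. Where the number of plastid genes called moved by over 1.5 times, it was as follows, and the cause was not tested. The share of all genes called under each alternative is not given here, so whether plastid genes moved more than other genes was not shown. Without the limma trend it was 0, 0 and 1 for the sextuple line, 6OX and 2OX against Col, 4 between AA and CK in 4OX, 0, 16 and 8 for the sextuple line, 4OX and 2OX against Col in the CK libraries, and 15, 1 and 0 for the interactions of 2OX, 4OX and the sextuple line. DESeq2 gave 57, 4 and 34 in 2OX, 4OX and 6OX against Col, 3 and 12 between AA and CK in 2OX and 6OX, 4 in 6OX against Col in the CK libraries, and interactions of 66, 34 and 63 in 4OX, 6OX and the sextuple line. Asking for a fold above 2 and an adjusted p below 0.01 left 8 and 0 in 2OX and the sextuple line against Col, 0, 0 and 17 between AA and CK in 4OX, 6OX and the sextuple line, 28 and 4 in 2OX and the sextuple line in the CK libraries, and interactions of 18, 5 and 0 in 2OX, 4OX and the sextuple line. edgeR gave 1, 1 and 3 between AA and CK in 2OX, 4OX and 6OX and an interaction of 24 in the sextuple line. A mean of at least 10 gave 1, 1 and 3 between AA and CK in 2OX, 4OX and 6OX, and log2(value + 5) gave 1 and 2 in 4OX and 6OX and an interaction of 24 in the sextuple line. Scaling to all reads, or to reads outside the organelles and rRNA, gave 1, 1 and 0 between AA and CK in 2OX, 4OX and 6OX.

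Whether replicate numbers pair the libraries is not given in the labels. Over all genes, in no comparison were all 3 same-number correlations of deviations over 0.1. Only in 2OX against Col did each library correlate best with its own number. With 3 libraries per group these correlations cannot exclude a pairing, also for the plastid genes alone. With the replicate block the counts were 2 and 0 in 4OX and the sextuple line against Col, 1, 1 and 43 between AA and CK in 2OX, 4OX and 6OX, 47 and 15 in 6OX and the sextuple line in the CK libraries, and interactions of 55, 14 and 0 in 4OX, 6OX and the sextuple line.

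Leaving out each library in turn, counts ran from 0 to 3, 3 to 12, 0 to 1 and 8 to 54 for the sextuple line, 6OX, 4OX and 2OX against Col; from 0 to 7, 1 to 2, 0 to 35, 22 to 38 and 87 to 94 between AA and CK in 2OX, 4OX, 6OX, the sextuple line and Col; from 35 to 84, 77 to 87, 0 to 5 and 0 to 73 for 2OX, 4OX, 6OX and lastly the sextuple line in the CK libraries; and from 39 to 71, 5 to 58, 0 to 6 and 0 to 39 for the interactions in that order. Depth limits the 67 members with a median under 1 RPM.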
